A study of Homo sapiens with 8 samples.

Results

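The miR-200 family was followed in small RNA libraries of 786-O cells, written 786O in the labels, a widely used human cell line derived from a clear cell kidney cancer (ccRCC). The family was taken by name as 9 mature miRNAs, and 8 of them are among the 3112 miRNAs of the count table. Counts of the ninth, hsa-miR-200c-5p, were not analysed here, and it enters by its sequence alone. The control group (NC) holds 4 libraries of cells that received a control plasmid, and the circSOD2-sh group holds 4 libraries of cells that received a plasmid for a short hairpin RNA against circSOD2, a circular RNA made from exons of SOD2. The labels give transfection with Lipofectamine 3000 and RNA taken 48 h later, whereas the methods of the study describe lentiviral knockdown, and which hairpin these cells carried is not given in the sources used here. All 8 libraries come from a single line, and nothing says that they came from separate cultures, so p-values measure the spread between these samples, which may be technical. Small RNA libraries do not give the level of circSOD2, so the knockdown could not be checked.

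The family is transcribed from a cluster on 1p36, which gives miR-200b, miR-200a and miR-429, and a cluster on 12p13, which gives miR-200c and miR-141. A mature miRNA finds its target messages mainly through its seed, bases 2 to 8. In epithelial cells the family represses the transcription factors ZEB1 and ZEB2, which in turn repress the promoters of both clusters and the adhesion gene CDH1, and loss of the family is a well known feature of epithelial cells that take on mesenchymal traits. None of these messages or proteins is measured by small RNA libraries, so the epithelial state of the cells was read here only from other miRNAs.

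The mature sequences are printed because the seed and a few further bases are all that separate most members (RefSeq, GRCh38.p14, 5′ to 3′, seed in capitals). RefSeq held 8 of the 9 members, and hsa-miR-141-5p is named only. The members with the seed AAUACUG come from both clusters.
hsa-miR-200b-3p: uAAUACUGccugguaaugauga
hsa-miR-429: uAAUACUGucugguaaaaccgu
hsa-miR-200c-3p: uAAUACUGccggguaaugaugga
The members with the seed AACACUG also come from both clusters.
hsa-miR-200a-3p: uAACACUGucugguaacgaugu
hsa-miR-141-3p: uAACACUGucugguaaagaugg
The 5p arms share a different seed, which in hsa-miR-200c-5p differs from that of hsa-miR-200a-5p by A2G.
hsa-miR-200a-5p: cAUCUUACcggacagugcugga
hsa-miR-200b-5p: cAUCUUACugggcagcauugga
hsa-miR-200c-5p: cGUCUUACccagcaguguuugg
Over their first 22 bases, miR-200b-3p and miR-200c-3p share 20 bases and differ by U11G and A22G, and miR-200a-3p and miR-141-3p share 20 bases and differ by C17A and U22G, with positions counted from 1 at the 5′ end and the base of the first named miRNA given first. How reads that match 2 such miRNAs were counted is not given in the sources used here, so the low members miR-200c-3p and miR-141-3p are uncertain to the extent that reads of their abundant partners could be placed on them.

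In GENCODE release 29 (GRCh38), the hairpins of the 1p36 cluster are MIR200B at chr1:1167104-1167198, MIR200A at chr1:1167863-1167952 and MIR429 at chr1:1169005-1169087, all on the plus strand, within 1984 bases and overlapping no other annotated gene. The hairpins of the 12p13 cluster are MIR200C at chr12:6963699-6963766 and MIR141 at chr12:6964097-6964191, on the plus strand and within 493 bases. Both lie in the intron of the long non-coding RNA MIR200CHG, between its exons at chr12:6963246-6963348 and chr12:6964201-6964447.

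Counts summed to between 6386872 and 9245044 per NC library and between 3743860 and 4208276 per circSOD2-sh library. Predicted miRNAs, which carry a number of the authors and no name, held 58.1% to 63.8% of the NC counts but 3.54% to 4.93% of the circSOD2-sh counts, so that the choice of scaling moves every fold change. Levels are given below as normalized CPM, that is, counts scaled to a common library size after TMM normalization. On this scale the median log2 fold change, circSOD2-sh over NC, was -0.0021 over the 895 miRNAs tested, and with library totals in place of TMM it moved to 0.963. NC replicate 4 stands apart from the other NC libraries in the summed miRNAs of kidney tubule, of stromal and vascular cells and of blood cells. circSOD2-sh replicate 2 does so in its group in those of stromal and vascular and of neural cells. The values are given beside the results they touch. In bulk RNA, fewer cells of a type and less RNA per cell cannot be told apart. A count of 3, taken as the floor, corresponds to 0.46 to 0.674 normalized CPM across the 8 libraries, for counting error only, since PCR copies of a molecule count as separate reads.

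On the TMM scale, 5 of the 7 members that could be tested were lower in circSOD2-sh, none was higher and 2 were not called, whereas on library totals 5 were higher and 1 was lower. Calls are from the quasi-likelihood test of edgeR with an adjusted p under 0.05 over all 895 miRNAs. Such calls are common in this comparison. Of all miRNAs tested, 65.7% were called in either direction, 32.4% lower and 33.3% higher, and of the 463 known miRNAs tested 28.5% were called lower. With library totals 68.5% of all miRNAs tested were called higher and 17.7% lower, and counts at that scaling are to be read against these shares. The groups did not overlap in 5 of the 7 members, and in 60.3% of all miRNAs tested. The median log2 fold change of the 7 members was -0.30, beside -0.0021 over all miRNAs tested and -0.11 over the known ones. miR-141-3p passed the low-count filter through its NC levels, so a difference in it is in part set by the filter.

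**Figure D1:**
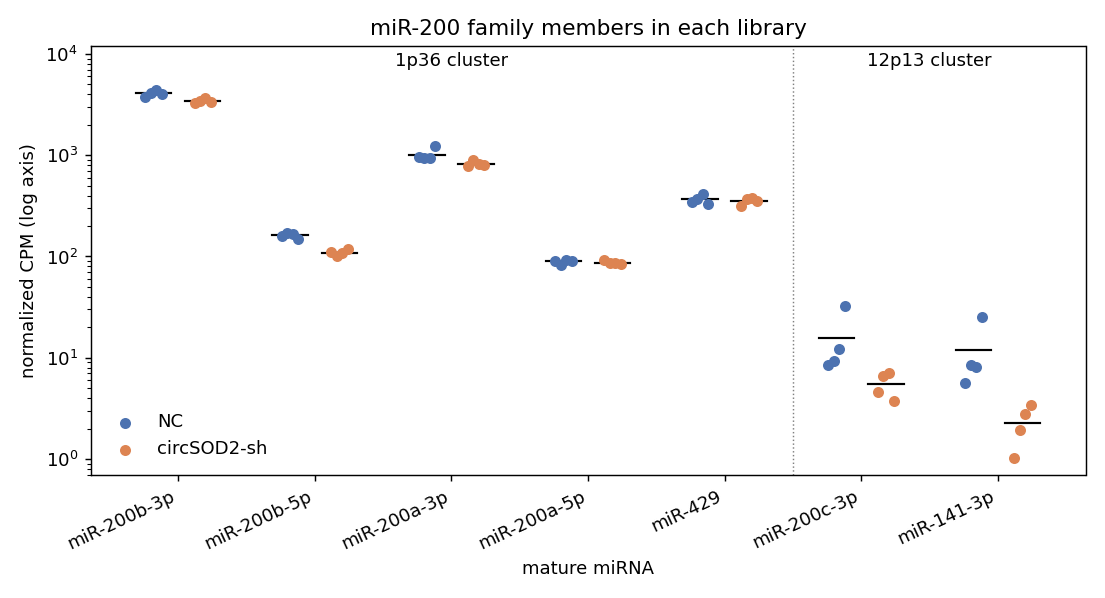
Normalized CPM (log axis) of the 7 members tested in each of the 4 NC and 4 circSOD2-sh libraries, where a point is a library and a line the mean of its group. The 1p36 members lie well above the 12p13 members in every library, the point far above its group in miR-200c-3p and miR-141-3p is NC replicate 4, and the lower circSOD2-sh points of miR-200b-3p, miR-200b-5p and miR-200a-3p hold for this scaling and turn with library totals.

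The family was dominated by the 1p36 cluster, and within it by miR-200b-3p. Each read spans a mature miRNA of 22 or 23 bases, so levels of members were set side by side without a length correction, and unequal ligation of the sequences was not measured. miR-200b-3p held 71.0% of the family's counts on average in NC and 71.3% in circSOD2-sh, miR-200a-3p 17.7% and 17.1%, and miR-429 6.38% and 7.35%. Among known miRNAs miR-200b-3p ranked 24 to 25 in the NC libraries and 31 to 33 in the circSOD2-sh libraries. The whole family took 1.06% ± 0.0345 (SD, n = 4) of known miRNA counts across NC and 0.701% ± 0.0147 (SD, n = 4) across circSOD2-sh, with no overlap of the groups. This share also falls when other known miRNAs rise. With TMM of known miRNAs alone the log2 difference of the summed 1p36 members was -0.20, and with library totals it was 0.72. Of the 12p13 members, miR-200c-3p held 0.27% of the family's counts in NC and 0.113% in circSOD2-sh.

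hsa-miR-200b-3p, the guide arm of MIR200B, had 24603, 26583, 26124 and 17730 counts in NC replicates 1 to 4 and 19445, 19366, 18263 and 18788 counts in circSOD2-sh replicates 1 to 4. The raw counts overlap only through NC replicate 4, the shallowest library of its group. In normalized CPM the groups separate, the NC libraries at 3774 to 4455 and the circSOD2-sh libraries at 3305 to 3665. The mean was 4076 ± 285 normalized CPM (SD, n = 4) for NC against 3433 ± 162 (SD, n = 4) for circSOD2-sh. This gave a log2 fold change of -0.25 (SE 0.07, adjusted p = 0.0126, edgeR) on the TMM scale and 0.72 on library totals, and the latter is still below the median of all miRNAs on that scale.

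hsa-miR-200b-5p, the other arm of the same hairpin, had 1042, 1108, 979 and 667 counts in NC and 651, 567, 535 and 672 counts in circSOD2-sh. All 4 circSOD2-sh libraries lay below all NC libraries in normalized CPM, at 100.1 to 120 against 150 to 171. Its log2 fold change was the largest decrease of the 1p36 members, at -0.56 (SE 0.09, adjusted p = 0.000517, edgeR), and turned to 0.41 on library totals.

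hsa-miR-200a-3p, which carries the other seed, had 6203, 6129, 5488 and 5477 counts in NC and 4561, 5079, 4049 and 4524 counts in circSOD2-sh. NC replicate 4, at 1231 normalized CPM, was above the other NC libraries at 936 to 951, while the circSOD2-sh libraries were at 775 to 897. The log2 fold change was -0.30 (SE 0.11, adjusted p = 0.0277, edgeR) on the TMM scale and 0.67 on library totals. Fitted on known miRNAs alone it was -0.26 and no longer passed (adjusted p = 0.0668, edgeR).

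The remaining 1p36 members, hsa-miR-200a-5p and hsa-miR-429, were not called on the TMM scale. miR-200a-5p had 593, 540, 541 and 406 counts in NC and 538, 491, 425 and 472 counts in circSOD2-sh, with overlapping groups at 89.4 ± 4.21 normalized CPM (SD, n = 4) and 86.8 ± 3.26 (SD, n = 4). Its log2 fold change was -0.04, with a 95% interval from -0.24 to 0.16 (adjusted p = 0.694, edgeR). miR-429 had 2260, 2427, 2444 and 1460 counts in NC and 1838, 2112, 1897 and 1969 counts in circSOD2-sh, again overlapping at 366 ± 38.5 normalized CPM (SD, n = 4) and 354 ± 30.6 (SD, n = 4). Its log2 fold change was -0.05, with a 95% interval from -0.28 to 0.18 (adjusted p = 0.689, edgeR). On library totals the values of miR-200a-5p and miR-429 were 0.93 and 0.91, close to the median of all miRNAs there.

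**Figure D2:**
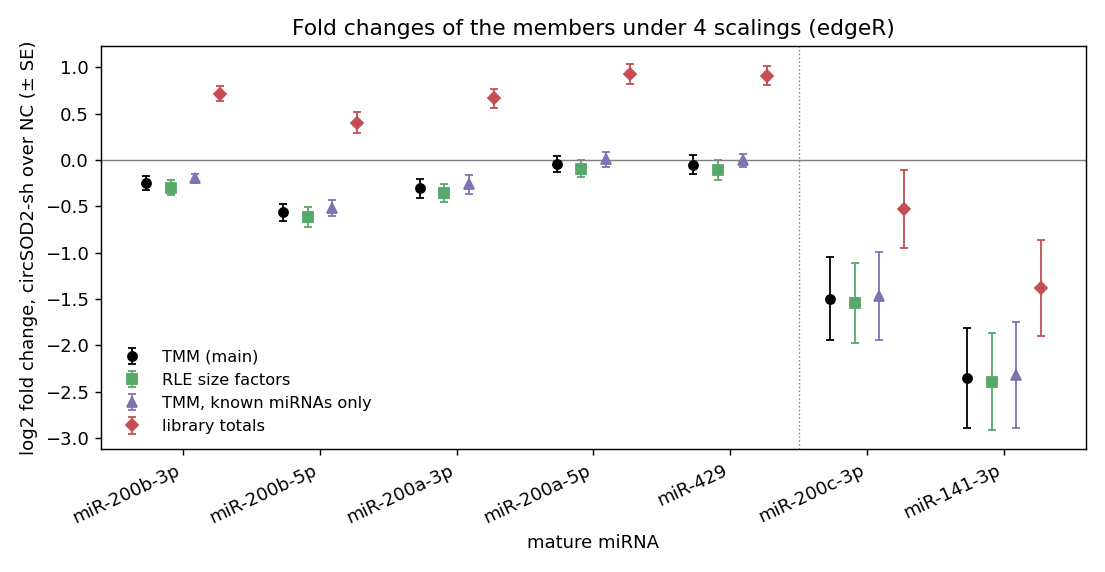
Log2 fold change, circSOD2-sh over NC, with its standard error, of the 7 members under TMM, RLE size factors, TMM of known miRNAs alone and library totals, all fitted with edgeR. The 5 members of the 1p36 cluster lie at or below about 0 under the first 3 scalings and between 0.41 and 0.93 with library totals, where the median of all miRNAs is 0.963, and the 12p13 members lie below 0 under all 4.

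The 12p13 cluster was far lower than the 1p36 cluster. Its members miR-200c-3p and miR-141-3p were called lower in circSOD2-sh with TMM, and kept this direction under every scaling run, although miR-200c-3p did not pass with library totals, upper quartile or the deposited CPM. hsa-miR-200c-3p, which shares the seed of miR-200b-3p, had 55, 61, 71 and 145 counts in NC and 27, 37, 35 and 21 counts in circSOD2-sh. The groups did not overlap, and NC replicate 4 lay at 32.6 normalized CPM, while the remaining NC libraries lay at 8.44 to 12.1 and those of circSOD2-sh at 3.74 to 7.02. A log2 fold change of -1.50 was fitted (SE 0.45, adjusted p = 0.0148, edgeR), and -0.53 on library totals (adjusted p = 0.257, edgeR). Without NC replicate 4 it was -0.91 (adjusted p = 0.0130, edgeR).

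hsa-miR-141-3p, which shares the seed of miR-200a-3p, had 37, 55, 47 and 113 counts in NC and 6, 11, 14 and 19 counts in circSOD2-sh. Every circSOD2-sh library, at 1.02 to 3.38 normalized CPM, lay below every NC library, at 5.68 to 25.4, and the highest value was again that of NC replicate 4. The log2 fold change was -2.35 (SE 0.54, adjusted p = 0.00348, edgeR), and -1.38 on library totals. Without NC replicate 4 it was -1.73 (adjusted p = 0.00177, edgeR). hsa-miR-141-5p had a single count, in NC replicate 4, and was not tested.

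The clusters were then compared as sums. The 1p36 sum fell from 5709 ± 308 normalized CPM (SD, n = 4) for NC to 4805 ± 200.4 (SD, n = 4) for circSOD2-sh, a difference of -0.25 on the log2 scale (exact two-sided permutation test, p = 0.0286, adjusted p = 0.0343 over 6 tests) that turned to 0.72 on library totals. The 12p13 sum was 14.1, 17.9, 20.1 and 58.2 normalized CPM in the NC libraries and 5.61, 8.47, 9.83 and 7.11 in the circSOD2-sh libraries, a difference of -1.56 (exact two-sided permutation test, p = 0.0286, adjusted p = 0.0343). On library totals that difference was -0.63 (exact permutation test, p = 0.229). With 4 libraries in each group no exact p can fall below 0.0286, and 4 against 3 cannot go below 0.0571, so no fit with a library left out could pass. Without NC replicate 4 the difference of the 12p13 sum was -1.13.

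Ratios taken inside a library are free of the scaling. For every 1000 counts of the 1p36 cluster, the 12p13 cluster had 2.65, 3.15, 3.32 and 10.1 counts in the NC libraries and 1.22, 1.74, 1.95 and 1.51 counts in the circSOD2-sh libraries. All circSOD2-sh libraries lay below all NC libraries, so that the 12p13 members were lower relative to the 1p36 members (log2 difference -1.36, exact two-sided permutation test, p = 0.0286, adjusted p = 0.0343). Without NC replicate 4, whose ratio is far above the rest, the difference was -0.93. The 12p13 sum behind the ratio is 92 to 259 counts in NC and 33 to 49 counts in circSOD2-sh.

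The same direction was seen within each seed. miR-200c-3p had 2.24, 2.29, 2.72 and 8.18 counts per 1000 counts of miR-200b-3p in NC and 1.39, 1.91, 1.92 and 1.12 in circSOD2-sh (log2 difference -1.07, exact two-sided permutation test, p = 0.0286, adjusted p = 0.0343), and the difference without NC replicate 4 was -0.63. miR-141-3p had 5.96, 8.97, 8.56 and 20.6 counts per 1000 counts of miR-200a-3p in NC and 1.32, 2.17, 3.46 and 4.20 in circSOD2-sh (log2 difference -1.91, exact two-sided permutation test, p = 0.0286, adjusted p = 0.0343), and without NC replicate 4 it was -1.55. These pair ratios were added after the values were seen and are among the 6 tests adjusted together. They reuse the counts behind the cluster ratio, so they are not separate support for it. How reads shared by these near-identical pairs were placed could affect both ratios and was not tested. The sums of the seed groups, by contrast, kept overlapping ratios, with 3.46 to 5.17 AAUACUG counts per AACACUG count in NC and 4.23 to 4.97 in circSOD2-sh (log2 difference 0.08, exact two-sided permutation test, p = 0.686).

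**Figure D3:**
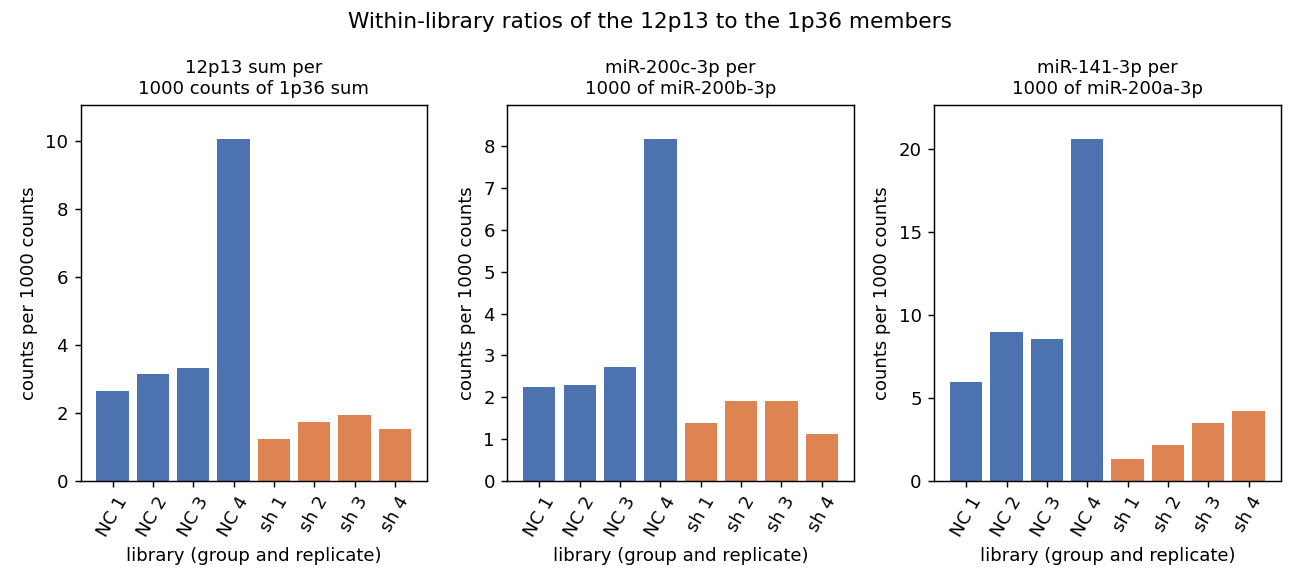
Counts of the 12p13 members per 1000 counts of the 1p36 members within each library, for the cluster sums (left) and for the pairs with the same seed (middle, miR-200c-3p to miR-200b-3p; right, miR-141-3p to miR-200a-3p), with a bar per library. All circSOD2-sh bars, labelled sh, are below all NC bars in each panel, and NC replicate 4 is the tallest, at 10.1, 8.18 and 20.6.

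The arms of a hairpin come from the same precursor and can be compared without scaling too. MIR200B gave 23.6 to 26.7 counts of its 3p arm per count of its 5p arm in NC and 28.0 to 34.2 in circSOD2-sh, so the 5p arm was lower relative to the 3p arm in all 4 circSOD2-sh libraries (log2 difference of 5p to 3p -0.32, exact two-sided permutation test, p = 0.0286, adjusted p = 0.0571 over 2 hairpins). MIR200A lay the other way, with 10.1 to 13.5 counts of 3p per count of 5p in NC and 8.48 to 10.3 in circSOD2-sh, where the groups overlap (log2 difference 0.26, exact two-sided permutation test, p = 0.0571, adjusted p = 0.0571). Neither arm ratio passed after adjustment.

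Promoters of the host transcripts are shown for the motif CACCTG, the E-box letters that ZEB1 and ZEB2 are known to bind. The search took 250 bases before to 50 bases after each RefSeq gene start (GRCh38.p14), on both strands, so CAGGTG counts as the same motif. The window of MIR200BHG, the host transcript of the 1p36 cluster at chr1:1162627-1162926, holds it 2 times, beginning 102 and 58 bases before the start, and that of MIR200CHG at chr12:6962995-6963294 holds it 1 time, 78 bases before the start (all on the plus strand, motif in capitals).
MIR200BHG, chr1:1162763-1162792: gcccaggggacaCACCTGtcgggggccagg
MIR200BHG, chr1:1162807-1162836: agcgggagctcgCACCTGtgtggggcgggg
MIR200CHG, chr12:6963155-6963184: ggcaggaggacaCACCTGtgcgcagggtgg
The motif is common. It is found in 20.6% of the 35116 promoter windows of the same length and at least 2 times in 3.49% of them, and no binding or transcription was measured here.

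circSOD2 was searched for sites that could pair with the seeds of the family. The circle of 462 bases joins 3 exons of SOD2 (chr6:159682474-159688242, minus strand, GENCODE release 29, GRCh38), and was read from exons whose joined ends match the junction targets of the study's hairpins. No match was found to CAGTATT, the complement of the seed of miR-200b-3p, which is present in 3.46% of 19501 windows of 462 bases of coding transcripts. The complement of the seed of miR-200a-3p, CAGTGTT, was also without a match, and 4.31% of the windows hold it. The same held for GTAAGAT, which pairs with the 5p seed of miR-200a and miR-200b and is in 1.37% of the windows. For hsa-miR-200c-5p the complement GTAAGAC, in 0.979% of the windows, had no match either. The search ran across the junction, and the 6 letters that pair with bases 2 to 7 gave no match for any seed. Most windows of this length hold none of the full seed complements, and the share that holds the 6-letter matches is not given here.

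Other miRNAs known for epithelial cells were read beside the family. Of 12 such miRNAs outside it, 7 are listed and 5 were tested. On the TMM scale 3 were lower, 1 was higher and 1 was not called, beside 32.4% lower and 33.3% higher of all miRNAs tested. Their median log2 fold change was -0.32 beside -0.0021 over all miRNAs tested. On library totals, where 68.5% of all miRNAs were called higher, 4 of the 5 were higher and none was lower. Those lower were the members of the miR-183 cluster, at levels like that of miR-200b-3p. hsa-miR-96-5p ranged from 3490 to 4508 normalized CPM across NC and from 2058 to 3351 across circSOD2-sh, at a log2 fold change of -0.49 (adjusted p = 0.0201, edgeR) that turned to 0.47 on library totals. hsa-miR-183-5p and hsa-miR-182-5p had overlapping groups and log2 fold changes of -0.32 and -0.25 (adjusted p = 0.0397 and 0.0305, edgeR), which turned to 0.64 and 0.71. hsa-miR-205-5p, which represses ZEB1 and ZEB2 as the family does and is named here after its values were seen, went the other way. It had 12, 14, 20 and 41 counts in NC and 108, 109, 88 and 107 counts in circSOD2-sh, with a log2 fold change of 2.21 (adjusted p = 0.00134, edgeR), which was 2.86 without NC replicate 4. This miRNA passed the low-count filter through its circSOD2-sh levels, so a rise in it is in part set by the filter.

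Of 9 miRNAs linked to the mesenchymal state, 8 are listed and 7 were tested. On the TMM scale 2 were higher, 3 were lower and 2 were not called, beside 33.3% higher and 32.4% lower of all miRNAs tested. Their median log2 fold change was -0.08. On library totals 6 of the 7 were higher and none was lower, again beside 68.5% of all miRNAs. hsa-miR-21-5p, the most abundant of them, ranged from 126051 to 142972 normalized CPM across NC and from 108230 to 154566 across circSOD2-sh and was not called (log2 fold change -0.03, adjusted p = 0.802, edgeR). hsa-miR-103a-3p and hsa-miR-107, which are known to repress Dicer and through it the miR-200 family and are named after their values were seen, were higher by 0.40 and 0.41 on the log2 scale (adjusted p = 0.000526 and 0.0104, edgeR), and without NC replicate 4 miR-107 no longer passed (0.31, adjusted p = 0.0637, edgeR). hsa-miR-222-3p was lower on the TMM scale, at -0.43 (adjusted p = 0.00137, edgeR), and at 0.54 on library totals, while hsa-miR-221-3p of the same cluster was at -0.08 and not called. The others called lower, hsa-miR-155-5p and hsa-miR-10b-5p, are named after their values were seen and were at -0.52 and -1.62 (adjusted p = 0.0197 and 0.0391, edgeR), of which the first turned to 0.45 on library totals and the second was -0.47 without NC replicate 4.

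Lists of kidney tubule miRNAs and of other cell types were read for the library that sets the 12p13 values apart. NC replicate 4, which had the highest 12p13 level, also had the highest summed level of 3 of the lists. The kidney tubule list, with 6 of 7 miRNAs listed and hsa-miR-194-3p never above the floor, summed to 1066 normalized CPM there, to 376 to 400 in NC replicates 1 to 3 and to 301 to 350 across circSOD2-sh. Its most abundant member hsa-miR-192-5p was lower in circSOD2-sh, at a log2 fold change of -0.87 (adjusted p = 0.0350, edgeR), which was -0.40 without NC replicate 4 and 0.11 on library totals, and the other 2 tested were not called. Another member, hsa-miR-204-5p, named after its values were seen, lay the other way, with 1, 0, 0 and 4 counts in NC and 9, 164, 7 and 7 counts in circSOD2-sh. It did not pass the low-count filter with all libraries. With NC replicate 4 and circSOD2-sh replicate 2 left out it passed and was called higher (adjusted p = 0.000265, edgeR). It then passed only through its circSOD2-sh levels, so this call is in part set by the filter. In that fit hsa-miR-192-5p and hsa-miR-194-5p were called lower, at -0.47 and -0.52 (adjusted p = 0.000606 and 0.00493, edgeR). hsa-miR-215-5p was not called there. Of all 945 miRNAs tested in that fit, 309 were called higher and 350 lower. The stromal and vascular list, with all 10 listed, summed to 1420 in NC replicate 4 against 358 to 371, and to 832 in circSOD2-sh replicate 2 against 290 to 323. None of 6 tested was called, where 65.7% of all miRNAs tested were called in either direction. Without NC replicate 4, 2 were called higher, beside 295 of all 895 tested there. The blood cell list, with all 8 listed and hsa-miR-142-3p and hsa-miR-223-3p never above the floor, summed to 188 in NC replicate 4 against 28.0 to 44.2, and to 74.5 in circSOD2-sh replicate 2 against 23.8 to 33.4, and none of 3 tested was called. No miRNA of any list was at 0 in all libraries. The part of these lists in the 12p13 result was not tested.

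circSOD2-sh replicate 2 also stood apart in the neural list, which summed to 5319 normalized CPM there. The sum was 515 to 541 in replicates 1, 3 and 4 and 565 to 610 across NC. All 6 of the miRNAs tested, with 7 of 8 listed, were higher on library totals, beside 68.5% of all miRNAs. On the TMM scale 2 were higher and none lower, beside 33.3% higher and 32.4% lower of all miRNAs tested. The 2 were hsa-miR-124-3p, with 18220 counts in that library and 11 to 15 in the rest of its group, and hsa-miR-129-5p, with 133 counts against 14 to 22, the latter named after its values were seen. Both passed the low-count filter through their circSOD2-sh levels, so a rise in them is in part set by the filter. Without NC replicate 4 and circSOD2-sh replicate 2 both were called higher, at log2 fold changes of 1.05 and 1.08 in place of 9.40 and 2.56 (adjusted p = 0.0174 and 0.00736, edgeR). In that fit hsa-miR-128-3p was called lower at -0.27 (adjusted p = 0.0162, edgeR). Of all 945 miRNAs tested there, 309 were called higher and 350 lower. In the same library the 12p13 members did not stand apart. With NC replicate 4 and circSOD2-sh replicate 2 both left out, the log2 fold changes were -1.73 for miR-141-3p, -1.08 for miR-200c-3p, -0.36 for miR-200b-3p, -0.66 for miR-200b-5p and -0.35 for miR-200a-3p on the TMM scale, all with an adjusted p under the threshold in edgeR.

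**Figure D4:**
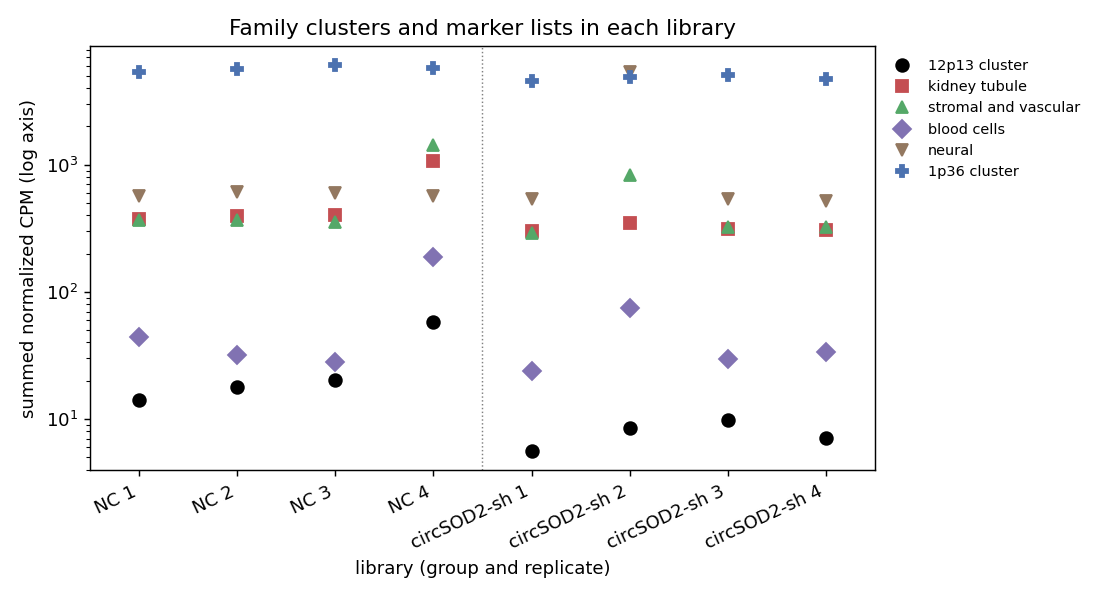
Summed normalized CPM (log axis) of the 2 family clusters and of the lists of kidney tubule, stromal and vascular, blood cell and neural miRNAs in each of the 8 libraries, with a symbol per sum. In NC replicate 4 the 12p13 sum (58.2), the kidney tubule sum (1066), the stromal and vascular sum (1420) and the blood cell sum (188) are all the highest of the 8 libraries, while the 1p36 sum (5785) is within the range of the other NC libraries.

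The miRNAs whose profiles over the 8 libraries lay nearest to that of the leading member of each cluster differed between the clusters. Likeness was the root mean square difference of centred log2(normalized CPM + 1) among 456 known miRNAs outside the family, given as a description with no test. Nearest to miR-200b-3p were hsa-miR-182-5p at 0.0491, hsa-miR-146a-5p at 0.0557 and hsa-miR-151a-3p at 0.0591, where the median of all candidates was 0.332. Nearest to miR-200c-3p were hsa-miR-486-5p at 0.317, hsa-miR-192-5p at 0.336 and hsa-miR-194-5p at 0.340, where the median was 0.827. The highest value of each of these last 3, as of miR-200c-3p, was in NC replicate 4, at 56.9, 953 and 92.4 normalized CPM.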

How the data were processed

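Small RNA of 4 NC and 4 circSOD2-sh libraries was analysed. The authors deposited raw counts for each mature miRNA, the same values as CPM on library totals that exceed the counts listed (these were 93.3% to 93.9% of it in NC and 83.7% to 85.7% in circSOD2-sh), and a table of their own comparison with fold changes and p-values, which was not used. The submitters' processing notes name FastQC 0.11.2, Trimmomatic 0.36, Bowtie 1.1.1 and GRCh38. The counting rule is not given in the sources used here.

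Counts were fitted over the whole table in R 4.3.3 with edgeR 4.0.16 (filterByExpr with a minimum count of 10, TMM, quasi-likelihood test, prior count 0.125, Benjamini-Hochberg adjustment). The fit kept 895 of 3112 rows, 463 of them known miRNAs. Standard errors are the log2 fold change over the square root of its F statistic. Sums and ratios took a pseudocount of 0.5 and exact two-sided permutation tests. Alternatives used DESeq2 1.42.0, limma 3.58.1 on the deposited CPM in log2 after adding 1 or 0.1, RLE, library totals, upper quartile, known miRNAs only, no low-count filter, a prior count of 2, the replicate block, each library left out in turn, and NC replicate 4 and circSOD2-sh replicate 2 left out together. Python 3.11.15, scipy 1.17.1, pandas 2.3.3 and matplotlib 3.10.9 were used.

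The members and lists were chosen with earlier results of these data known. Named were all members, the 3 nearest profiles to the leading member of each cluster, and up to 3 miRNAs with the most counts of each list. miRNAs of the lists outside this rule were named after their values were seen. edgeR was also run on simulated data of this comparison, with 861 miRNAs passing the filter. It recovered 100% of 191 miRNAs changed by 2 on the log2 scale and called 1.04% of the unchanged ones. Every simulated miRNA took the median dispersion of the data, and 200 were changed, up or down at random. The loss of predicted miRNA counts in circSOD2-sh was not simulated, and 65.7% of miRNAs were called in the data. These shares therefore need not hold for this comparison. Recovery of smaller changes, such as those of the 1p36 members, was not tested. How the choice of scaling affects these shares was not tested either. Chi-square per degree of freedom between libraries of a group was 11.4 or more, so none was counted as a repeat of another.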

Additional observations from a re-analysis of the deposited data

Results flagged for a closer look

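Dixon's gap test at its 95% critical value was run on 42 sets of 4 libraries and marked 1 library in 11 of them, where chance marks about 1 in 20, or 2.1. NC replicate 4 was the library in 8 of them, circSOD2-sh replicate 2 in 2 and NC replicate 2 in 1. For the members, NC replicate 4 was high in hsa-miR-200a-3p at 1231 normalized CPM against 936 to 951, in hsa-miR-200c-3p at 32.6 against 8.44 to 12.1 and in hsa-miR-141-3p at 25.4 against 5.68 to 8.47. It was also high in the log2 ratio of the 12p13 to the 1p36 cluster at -6.63 against -8.55 to -8.23, and in that of miR-200c-3p to miR-200b-3p at -6.93 against -8.79 to -8.51. NC replicate 2 was low in hsa-miR-200a-5p at 83.1 normalized CPM against 91.0 to 92.3.

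Among the lists, NC replicate 4 was high in the kidney tubule sum at 1066 normalized CPM against 376 to 400, in the stromal and vascular sum at 1420 against 358 to 371 and in the blood cell sum at 188 against 28.0 to 44.2. circSOD2-sh replicate 2 was high in the stromal and vascular sum at 832 against 290 to 323 and in the neural sum at 5319 against 515 to 541.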

How the results depend on the processing

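The direction of the 1p36 members depends on the scaling, and that of the 12p13 members did not change in any alternative run. The number of members called lower was 5 and called higher 0 on the TMM scale, against 1 and 5 with library totals, 1 and 4 with upper quartile, and 1 and 5 with limma on the deposited CPM plus 1 or plus 0.1. In the order miR-200a-5p, miR-200a-3p, miR-200b-5p, miR-200b-3p and miR-429, the log2 fold changes were 0.93, 0.67, 0.41, 0.72 and 0.91 with library totals, 0.80, 0.55, 0.28, 0.59 and 0.79 with upper quartile, 0.77, 0.53, 0.26, 0.58 and 0.77 with limma plus 1, and 0.78, 0.53, 0.26, 0.58 and 0.78 with limma plus 0.1. With library totals the 1p36 sum was 0.72 and the 12p13 sum -0.63, and over all miRNAs 613 were called higher and 158 lower, against 298 and 290 with TMM. miR-200a-5p, not called, was at 0.01 with known miRNAs only, where 4 members were called lower.

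With each library left out in turn, 5 members were called lower and 0 higher in all 8 fits. The differences lay between -0.28 and -0.22 for the 1p36 sum, -1.79 and -1.13 for the 12p13 sum and -1.57 and -0.93 for the cluster ratio. Each of these lost the threshold because 4 against 3 cannot go below an exact permutation p of 0.0571. The arm ratio of MIR200B, which had not passed after adjustment with all libraries, lay between -0.37 and -0.28. With NC replicate 4 and circSOD2-sh replicate 2 left out, the differences were -0.25, -1.17, -0.97 and -0.30 in the same order, where the smallest p is 0.1. Replicate numbers did not pair the libraries (correlations of deviations 0.22, -0.07, 0.09 and -0.15). With the replicate block 5 members were called lower and 574 miRNAs in all, against 588 without it. The cluster ratio of -1.36 no longer passed, because an exact permutation test over 4 pairs cannot reach the threshold. The MIR200B arm ratio of -0.32 had not passed after adjustment without the block either.

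The values of the lists and of their miRNAs under library totals and without the libraries that stand apart, and the pair ratios within a seed, were added after the data were seen. Depth limits the 12p13 members, which had 6 to 37 counts in the circSOD2-sh libraries.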

Other observations

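hsa-miR-550a-3p is the miRNA outside the family found to share a member's seed, GUCUUAC of hsa-miR-200c-5p. It had 1, 4, 2 and 1 counts in NC replicates 1 to 4 and 27, 31, 22 and 26 counts in circSOD2-sh replicates 1 to 4. The groups did not overlap, which holds in normalized CPM for 60.3% of all miRNAs tested. Its NC counts were near the floor of 3, and it passed the low-count filter through its circSOD2-sh levels.

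Of the low miRNAs in the epithelial list, hsa-miR-203a-3p and hsa-miR-375 had their highest count in NC replicate 4, as the 12p13 members did, while hsa-miR-205-5p was highest in circSOD2-sh and hsa-miR-205-3p, with at most 3 counts, in NC replicate 1. hsa-miR-203a-3p had 8, 16, 17 and 63 counts in NC and 5, 21, 10 and 3 counts in circSOD2-sh, and hsa-miR-375 had 3, 8, 2 and 33 counts in NC and 3, 12, 6 and 6 counts in circSOD2-sh. hsa-miR-10b-5p of the list linked to the mesenchymal state had 7372 counts in that library and 1541 to 1783 in the other NC libraries. These miRNAs were named after their values were seen.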
